A study of Homo sapiens with 6 samples.

Results

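The genes described here encode parts of the nuclear pore and the receptors that carry proteins and RNA through it. They were taken by symbol from the deposited expression table: every symbol made of NUP and a number, the importin alpha genes KPNA1 to KPNA7, importin beta KPNB1, the numbered importins (IPO) and transportins (TNPO), and the exportins (XPO, including XPOT). This rule found 45 of the 15832 genes listed, of which 21 are nucleoporins and 24 are transport receptors, and it used no measured value. The RNA was that of AsPC-1, an established line of human pancreatic cancer cells. The 3 siVCPIP1 libraries were made 48 h after transfection with an siRNA against VCPIP1, a deubiquitinating enzyme that works with the ATPase p97/VCP. The 3 siControl libraries were made 48 h after transfection with a control siRNA. The study set out to relate VCPIP1 to Hippo/YAP signalling in this cancer.

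The nuclear pore complex is a ring-shaped channel through the nuclear envelope. Its scaffold consists of outer rings built from the Y-shaped complex and of an inner ring, and its channel is filled by nucleoporins rich in phenylalanine-glycine (FG) repeats. Importin alpha recognises a nuclear localisation signal in its cargo and is itself carried by importin beta. Other importins and the transportins bind cargo directly, and exportins carry cargo out together with the small GTPase RAN in its GTP form.

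Levels are given in TPM, a share of all transcripts in a library scaled by gene length, so they say nothing about the amount of RNA per cell. In bulk RNA of this kind, fewer cells expressing a gene and less of its RNA per cell cannot be told apart. VCPIP1 itself was measured at 0.12, 0.11 and 0.27 TPM in the siVCPIP1 libraries and at 2.93, 3.06 and 2.24 TPM in the siControl libraries (exact permutation p = 0.1, the smallest that 3 against 3 libraries can give). Its log2 fold change was -1.68 (SE 0.13, limma, adjusted p = 2.0e-05). It lay at 0.26 and was not called once GC content and length, described below, were corrected for. At so low a siControl level, log2(TPM + 1) leaves little room to fall, so the corrected fit could hardly have shown VCPIP1 as lower. The libraries also differed in their whole distribution. The median TPM over all genes ranged from 1.24 to 2.26 in siVCPIP1 and from 6.18 to 7.44 in siControl, and siVCPIP1 replicate 3 had the 2.26. Read depth is unknown. Of the 8 epithelial markers, the keratins KRT8, KRT18 and KRT19 stood at 3909 TPM or more in every library, and the keratin KRT7 at 5.20 to 7.89 TPM in siVCPIP1 and 2.13 to 3.12 TPM in siControl. EPCAM, CDH1, MUC1 and CEACAM6 reached 11.69, 1.33, 23.55 and 0.41 TPM at most in siVCPIP1 and were no lower than 157.3, 27.5, 51.93 and 1.95 TPM in siControl. The listed markers of leukocytes, endothelium, fibroblasts and acinar cells stayed at or below 1.27 TPM, and 6 of those fixed for the other cell types, the islet hormones among them, were not in the table.

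TNPO1 and TNPO2 are a pair of paralogs, chosen after their values were known, that differ in GC content. Many of the results below, though not all, are ordered along it. Both are transportins, receptors for the PY-type nuclear localisation signal, and 86.2% of their 884 aligned codons encode the same amino acid. The coding stretch shown is the earliest one of 30 codons in which all 30 amino acids are the same. Capitals mark G or C at the third base of a codon, and the sequences come from GENCODE release 29 transcripts on GRCh38.
TNPO1: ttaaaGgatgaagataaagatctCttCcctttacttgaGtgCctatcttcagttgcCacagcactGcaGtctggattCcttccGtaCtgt
TNPO2: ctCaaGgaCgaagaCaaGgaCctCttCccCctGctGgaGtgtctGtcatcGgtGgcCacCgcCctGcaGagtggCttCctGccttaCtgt
The TNPO1 stretch is codons 576 to 605, in exons 15 and 16 (chr5:72891858-72893189, plus strand, an intron included). The TNPO2 stretch is codons 573 to 602, in exons 16 and 17 (chr19:12705549-12705720, minus strand, an intron included). G or C stood at the third base in 11 of 30 TNPO1 codons and in 24 of 30 TNPO2 codons, and 68 of 90 bases were the same. Over the whole transcript GC content was 42.7% in TNPO1 and 56.2% in TNPO2.

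Transcripts of the pore and its receptors were lower in siVCPIP1 almost throughout. Of the 45 genes, 44 reached a mean of 1 TPM over the 6 libraries and were tested, and 40 of these fell while 0 rose (limma on log2(TPM + 1), adjusted p under 0.05 over all 10966 genes tested). Of all genes tested, 66% were called lower and 15% higher. The summed TPM of the 45 genes was 361.6 ± 117.7 in siVCPIP1 and 1431 ± 117 in siControl (SD, n = 3 each). The median log2 fold change was -2.005, against -1.12 for all genes tested, and it was -2.12 for the 20 tested nucleoporins and -1.91 for the 24 receptors. All siVCPIP1 libraries lay below all siControl libraries in 41 of 44 genes, compared with 67.9% of all genes tested, and in 0 genes did they all lie above, compared with 18.2%. The exceptions were KPNA5, IPO4 and IPO13.

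**Figure D1:**
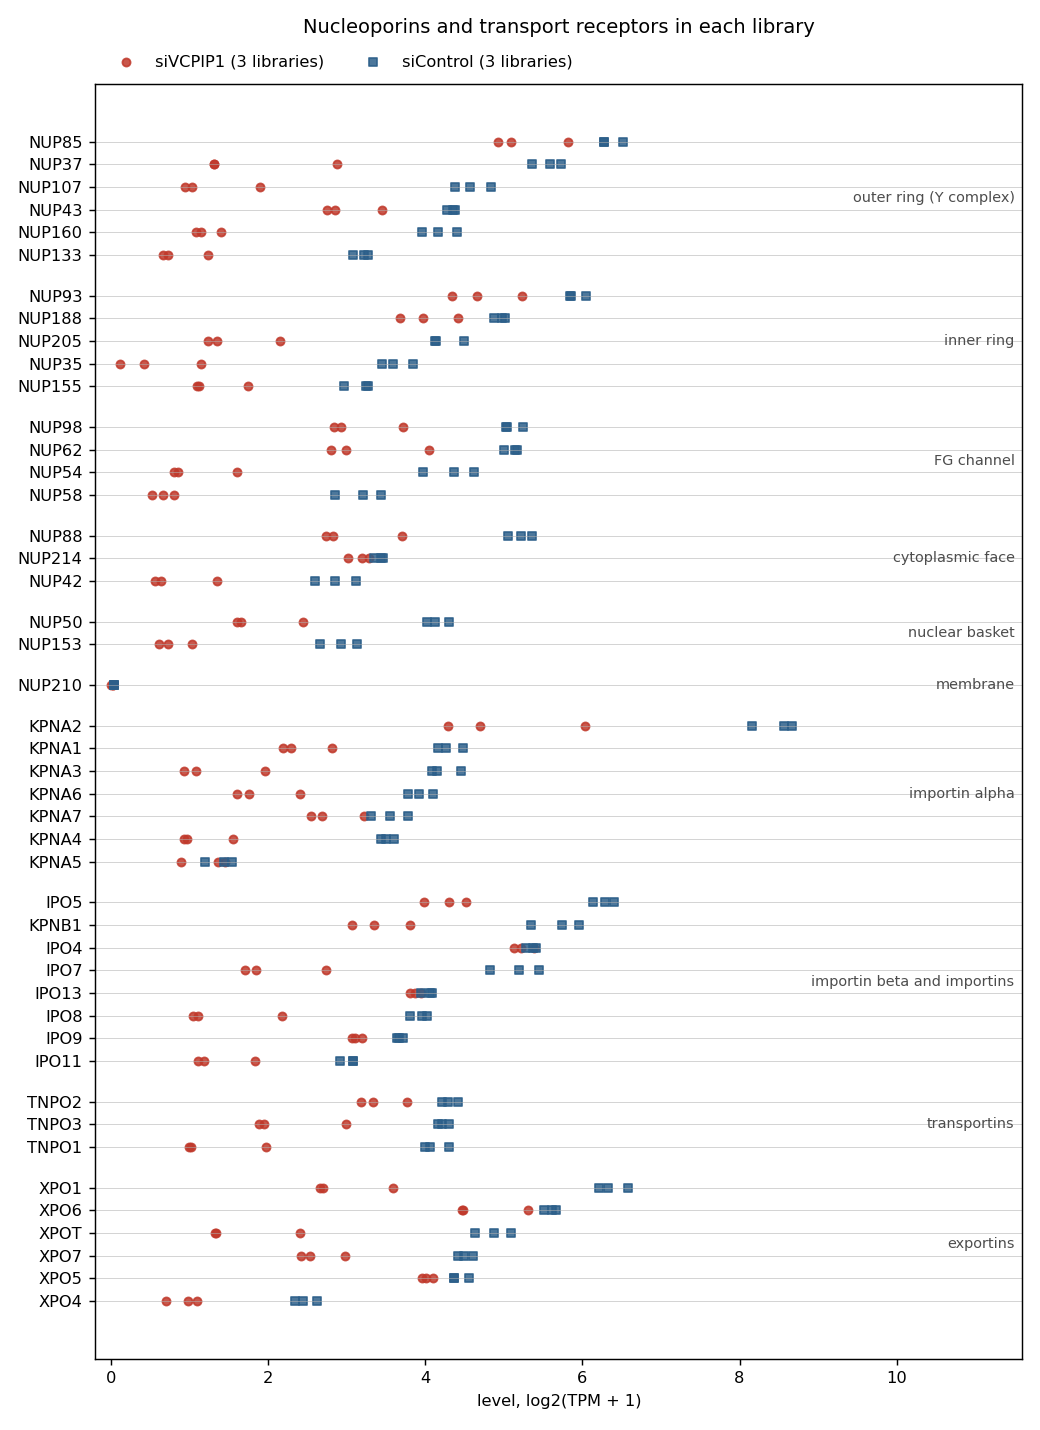
Level of each gene as log2(TPM + 1) on the horizontal axis, with circles for the 3 siVCPIP1 libraries and squares for the 3 siControl libraries, ordered by role and siControl level. The circles lie left of the squares without overlap in 41 of the 44 tested genes, and in most genes the rightmost circle, siVCPIP1 replicate 3, stands apart from the other 2.

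The siVCPIP1 libraries did not agree among themselves in how far these genes fell. Replicate 3 was the highest of the 3 in 42 of 44 genes, with a median of 1.93 times the mean of replicates 1 and 2. It was the lowest in the other 2, KPNA5 and IPO13. These counts were not made over all genes, but the library differed as a whole. Its median TPM over all genes was 2.26, against 1.26 and 1.24 in replicates 1 and 2. Without replicate 3, 40 genes were again lower and 0 higher (70.9% and 16.9% of all genes). The median change was then -2.25, against -1.28 for all genes. Leaving it out lowered the siVCPIP1 mean by over 1.5 times in 10 genes (NUP35, NUP37, IPO8, NUP42, KPNA2, TNPO1, KPNA3, XPOT, NUP107 and NUP54), from 2.60 times in NUP35 to 1.55 times in NUP54. The part of this library's difference in the results was not tested further.

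The direction of some calls depended on the scaling. Scaling by median of ratios moved the median of all genes from -1.12 to -0.14 and left 31 of the 44 genes lower and 7 higher (45.1% and 40.3% of all genes). Quantile normalization moved it to 0.04 and left 30 lower and 8 higher (38.8% and 42.2% of all genes). Removing each library's smooth trend on transcript GC content and length moved it to 0.07 and left 22 lower and 7 higher (31.7% and 37.2% of all genes). These steps align the libraries' centres, so a near-even balance over all genes follows from them. The same 22 genes, 12 nucleoporins and 10 receptors, were lower as deposited and in all 3 of these fits, as were 21.4% of all genes. They are named with their roles below.

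**Figure D2:**
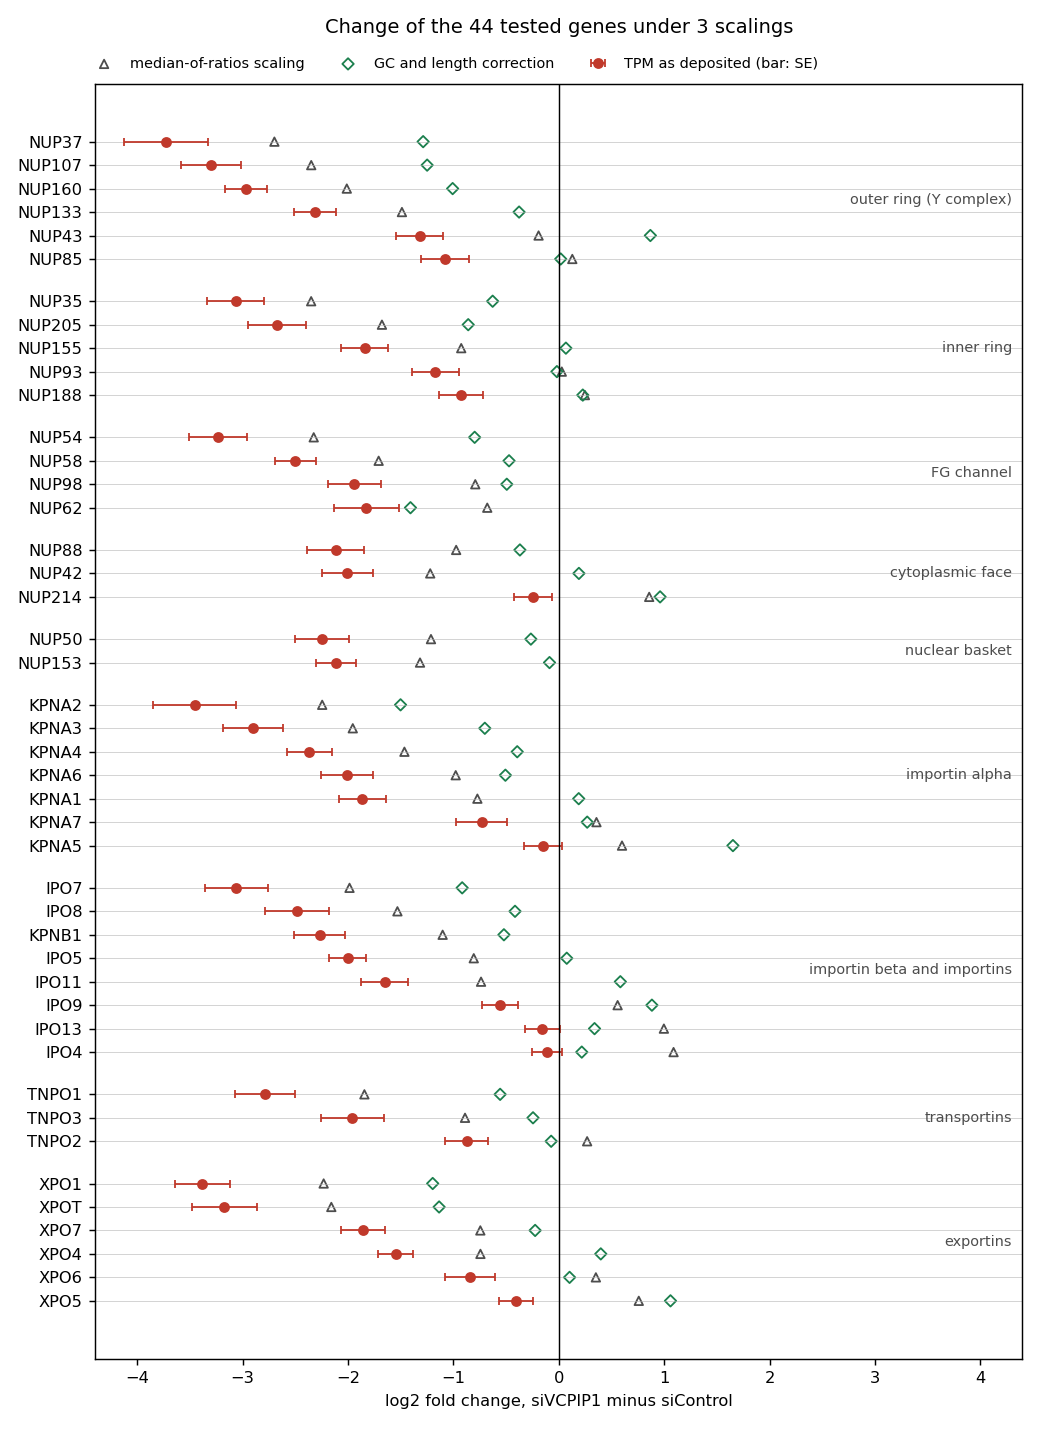
Log2 fold change, siVCPIP1 minus siControl, of the 44 tested genes, with filled circles and SE bars for TPM as deposited, triangles for median-of-ratios scaling and diamonds for GC and length correction. Every filled circle lies below 0, from -3.73 (NUP37) to -0.11 (IPO4), while triangles and diamonds of some genes cross to the right of 0.

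The outer ring of the pore is made of copies of the Y complex. All 6 of its members matched by the rule fell, where 66% of all genes tested fell. Their median change was -2.64, against -1.12 for all genes, and their summed TPM was 27.3% of its siControl mean. NUP37, a small subunit, was at 1.48, 1.49 and 6.36 TPM in siVCPIP1, against 40.19, 52.11 and 47.21 TPM in siControl. The groups were far apart, and replicate 3 was 4.28 times the mean of the other siVCPIP1 libraries, so that the siVCPIP1 mean of 3.11 TPM became 1.49 TPM without it. Its log2 fold change was -3.73 (SE 0.40, limma, adjusted p = 3.9e-05), the lowest of the 44 genes as deposited. NUP107, NUP160 and NUP133, large scaffold proteins of the complex, fell, with log2 fold changes of -3.30, -2.97 and -2.32. The NUP107 mean in siVCPIP1, 1.57 TPM, became 0.985 TPM without replicate 3. NUP37 and these 3 genes were lower in all the fits named above. NUP85, a subunit of a short arm, was the member that fell least, with 33.12, 29.27 and 55.23 TPM in siVCPIP1 and 76.51, 76.76 and 90.21 TPM in siControl. Its groups did not overlap (log2 fold change -1.08, SE 0.23, limma, adjusted p = 0.0021), but median-of-ratios scaling put it at 0.13 and GC and length correction at 0.018, not called in either (adjusted p of limma, 0.46 and 0.90). Quantile normalization left NUP85 lower (-0.52). NUP43 fell by 1.32. It was not called after quantile normalization (0.075, adjusted p of limma, 0.58), and it was called higher, by 0.87, with GC and length corrected.

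All 5 members of the inner ring fell, where 66% of all genes tested fell. Their median change was -1.84, against -1.12 for all genes. NUP35, which links the ring to the membrane, was at 0.34, 0.08 and 1.22 TPM in siVCPIP1, against 10.99, 13.35 and 9.96 TPM in siControl. It kept 4.78% of its siControl mean, the smallest share of the 44 genes, and its siVCPIP1 mean of 0.547 TPM became 0.21 TPM without replicate 3. Its log2 fold change was -3.07 (SE 0.27, limma, adjusted p = 2.1e-05). The large scaffold proteins of the ring moved unequally. NUP205 fell by 2.67, while its relative NUP188 fell by 0.93 and was measured at 14.72, 11.83 and 20.32 TPM in siVCPIP1, against 28.22, 30.42 and 31.22 TPM in siControl. NUP188 was not called after median-of-ratios scaling, quantile normalization or GC and length correction, where it lay at 0.25, 0.14 and 0.23. NUP93, which joins the inner ring to the FG nucleoporins, fell by 1.17, and median-of-ratios scaling put it at 0.028 without a call. Quantile normalization left NUP93 lower (-0.45), and GC and length correction put it at -0.018 without a call. NUP155 fell by 1.84, and the correction for GC and length put it at 0.067 without a call. NUP35 and NUP205 were lower in all the fits.

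The 4 FG nucleoporins of the channel, NUP54, NUP58, NUP62 and NUP98, fell as deposited and in all 3 other fits, as did 21.4% of all genes. NUP54 was at 0.74, 0.80 and 2.04 TPM in siVCPIP1 and at 19.69, 23.52 and 14.64 TPM in siControl (-3.23, SE 0.28, limma, adjusted p = 2.1e-05). Its siVCPIP1 mean of 1.19 TPM became 0.77 TPM without replicate 3. NUP98, whose product is cleaved into the FG protein Nup98 and the Y complex protein Nup96, was at 6.64, 6.13 and 12.19 TPM in siVCPIP1 and at 31.85, 36.98 and 31.58 TPM in siControl (-1.94, SE 0.25, limma, adjusted p = 0.00011). NUP62, the partner of NUP54 and NUP58 in the channel, was at 6.93, 5.94 and 15.52 TPM in siVCPIP1, against 31.02, 35.05 and 34.26 TPM in siControl. In none of the 4 did the groups overlap. The NUP62 change was -1.83 (SE 0.31, limma, adjusted p = 0.00053) at a transcript GC content of 58.4%, and -1.41 after GC and length correction. NUP62 and NUP98 share exons with other coding genes in GENCODE 29 (IL4I1 and ATF5, and CHRNA10), whose reads may not be separable. The same holds for IPO4, IPO11, NUP88, NUP188 and XPO5, so for 7 of the 45 genes in all.

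At the faces of the pore, NUP214 stood apart from the other nucleoporins. NUP214, a docking site for export complexes on the cytoplasmic side, was at 8.14, 7.12 and 8.77 TPM in siVCPIP1 and at 9.17, 10.02 and 9.81 TPM in siControl. The groups did not overlap, but their distance was small and not called (-0.25, SE 0.18, limma, adjusted p = 0.23). It was called higher in the other 3 fits, by 0.86, 1.22 and 0.96. NUP88, which binds NUP214 in a subcomplex, was at 5.67, 6.10 and 11.99 TPM in siVCPIP1 and at 32.16, 36.14 and 39.97 TPM in siControl (-2.12, SE 0.27, limma, adjusted p = 9.2e-05), lower in all the fits. NUP42, also on the cytoplasmic side, fell by 2.01, with a siVCPIP1 mean of 0.863 TPM that became 0.515 TPM without replicate 3, and was not called with GC and length corrected (0.19).

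Both members of the nuclear basket fell, as did 66% of all genes tested. NUP153 was at 0.53, 0.65 and 1.05 TPM in siVCPIP1 and at 6.63, 7.75 and 5.32 TPM in siControl (-2.12, SE 0.19, limma, adjusted p = 2.1e-05). NUP50, a partner of NUP153 that helps release import cargo, was at 2.15, 2.05 and 4.45 TPM in siVCPIP1 and at 16.51, 18.67 and 15.31 TPM in siControl (-2.25, SE 0.26, limma, adjusted p = 5.5e-05). The groups lay well apart in both genes. NUP153 was no longer called with GC and length corrected (-0.088), and NUP50 was lower in all the fits. The membrane nucleoporin NUP210 did not reach the filter, with 0.02, 0.02 and 0 TPM in siVCPIP1 and 0.03 TPM in each siControl library.

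Importin alpha transcripts were dominated by KPNA2, a form abundant in proliferating cells. KPNA2 was at 18.56, 24.84 and 64.22 TPM in siVCPIP1, against 283.86, 376.94 and 404.04 TPM in siControl. It was the highest of the 45 genes in siControl, and in siVCPIP1 it overlapped in range with NUP85 and IPO4. Its log2 fold change was -3.46 (SE 0.39, limma, adjusted p = 5.2e-05), and its siVCPIP1 mean of 35.9 TPM became 21.7 TPM without replicate 3. It was lower in all the fits, by 1.502 after GC and length correction, the lowest of the 44 genes there. GENCODE 29 names 3 pseudogenes of KPNA2, which may share its reads, and likewise 3 each of TNPO1 and NUP210, 2 each of IPO7 and NUP35, and 1 each of IPO5, IPO8, NUP58 and XPOT.

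The paralogs KPNA3, KPNA4 and KPNA6 had log2 fold changes of -2.90, -2.37 and -2.01 and were lower in all the fits. The siVCPIP1 mean of KPNA3, 1.64 TPM, became 1.015 TPM without replicate 3. KPNA1 fell by 1.87, and with GC and length corrected it was not called (0.19). KPNA7 fell by 0.73 (limma, adjusted p = 0.019), a call lost when siVCPIP1 replicate 1 or 2 or siControl replicate 2 or 3 was left out (adjusted p 0.061 to 0.084), and it lay above 0 in the other 3 fits. KPNA5 was the exception of the family, with 1.74, 1.58 and 0.86 TPM in siVCPIP1 and 1.91, 1.71 and 1.29 TPM in siControl. Its groups overlapped (-0.15, SE 0.18, limma, adjusted p = 0.45). Its GC content of 34.4% was the lowest of the 44 genes, and it was called higher in the other 3 fits, by 0.60, 1.19 and 1.65. At 1.91 TPM or less in every library, KPNA5 had little room to fall on log2(TPM + 1), which limits what these 3 calls show.

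The make-up of the importin alpha transcripts therefore differed between the groups. Such a share is untouched by any scaling factor of a library, though not by a trend on GC content. KPNA2 held 63.7% ± 8.52 of importin alpha TPM in siVCPIP1 and 82.6% ± 2.33 in siControl (SD, n = 3 each). KPNA7 held 12.6% ± 3.42 and KPNA1 9.13% ± 2.01 in siVCPIP1, against 2.52% ± 0.16 and 4.41% ± 0.50 in siControl. The groups did not overlap in any of these 3 shares, although 3 against 3 libraries cannot give an exact p below 0.1. Nor did they overlap in the shares of KPNA3, KPNA5 and KPNA6, while they did in that of KPNA4. The summed importin alpha TPM in siVCPIP1 was 12.5% of its siControl mean, while the 8 genes of importin beta and the importins together kept 37.3%.

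**Figure D3:**
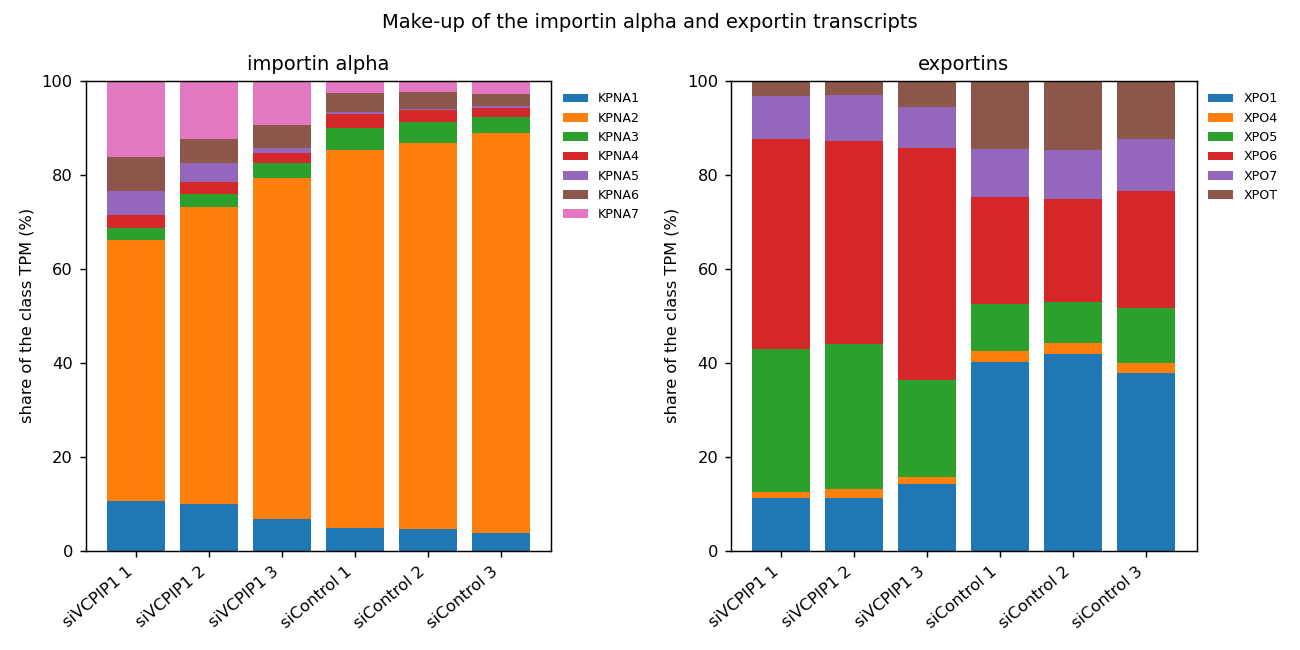
Share of the summed TPM of the 7 importin alpha genes (left) and the 6 exportins (right) held by each gene, in percent, with a stacked bar for each library. KPNA2 and XPO1 take a smaller part of the 3 siVCPIP1 bars than of the 3 siControl bars, and KPNA7, XPO5 and XPO6 a larger part.

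Importin beta, KPNB1, the carrier of importin alpha and of many other cargoes, was at 7.40, 9.18 and 13.01 TPM in siVCPIP1 and at 52.33, 60.93 and 39.67 TPM in siControl. The groups lay far apart (-2.27, SE 0.24, limma, adjusted p = 3.7e-05), and KPNB1 was lower in all the fits. The importin IPO7 was at 2.25, 2.61 and 5.67 TPM in siVCPIP1 and at 35.70, 42.58 and 27.37 TPM in siControl (-3.06, SE 0.30, limma, adjusted p = 2.8e-05). Its close relative IPO8 fell by 2.48, with a siVCPIP1 mean of 1.92 TPM that became 1.115 TPM without replicate 3, and both were lower in all the fits. IPO5 and IPO11 fell, with log2 fold changes of -2.003 and -1.65. With GC and length corrected, IPO5 was not called (0.075) and IPO11 was called higher, by 0.58. At 1.15 to 2.57 TPM in siVCPIP1, the fall of IPO11 is understated on log2(TPM + 1), which limits what this call shows. Quantile normalization put IPO11 at -0.029 without a call.

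IPO4, IPO9 and IPO13 kept most of their level. IPO4, an importin of histones and ribosomal proteins, was at 36.32, 33.89 and 40.86 TPM in siVCPIP1 and at 41.44, 40.46 and 38.06 TPM in siControl. The groups overlapped (-0.11, SE 0.14, limma, adjusted p = 0.49), and IPO4 was called higher after median-of-ratios scaling and quantile normalization, by 1.09 and 0.64. IPO13, which carries cargo in both directions, was also not called (-0.16, SE 0.16, limma, adjusted p = 0.40), at 14.36, 13.63 and 13.01 TPM in siVCPIP1 and 15.99, 15.66 and 14.36 TPM in siControl. It too was called higher under both scalings, by 0.997 and 1.14. IPO9 fell by 0.56 (limma, adjusted p = 0.014), but the call was lost without siVCPIP1 replicate 1 or siControl replicate 2 (adjusted p = 0.062 and 0.070), and it was higher in the other 3 fits. IPO4 shares exon bases with REC8 on the opposite strand, and the strand setting of the counts is not given.

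The paralogs TNPO1 and TNPO2 moved by different amounts. TNPO1 was at 1, 1.03 and 2.93 TPM in siVCPIP1 and at 15.73, 18.71 and 14.98 TPM in siControl (-2.79, SE 0.28, limma, adjusted p = 3.2e-05). Its siVCPIP1 mean of 1.65 TPM became 1.015 TPM without replicate 3. TNPO2 was at 9.05, 8.08 and 12.68 TPM in siVCPIP1 and at 18.53, 20.29 and 17.55 TPM in siControl (-0.88, SE 0.20, limma, adjusted p = 0.0035). The groups did not overlap in either gene. TNPO2 was the higher of the pair in every library of both groups, by little in siControl and by far more in siVCPIP1. The difference of TNPO2 minus TNPO1 on the log2(TPM + 1) scale was 2.10 ± 0.27 in siVCPIP1 and 0.18 ± 0.06 in siControl (SD, n = 3 each), a change of 1.91 (SE 0.16, two-sided exact permutation p = 0.1, the smallest possible). TNPO1 was lower in all the fits, by 0.56 with GC and length corrected, while TNPO2 lay at 0.27, 0.46 and -0.07 in the other 3 and was called, as higher, after quantile normalization only. TNPO3, an importin of splicing factors rich in serine and arginine, fell by 1.96 and was no longer called with GC and length corrected (-0.24).

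The pairs IPO7 and IPO8, and KPNA3 and KPNA4, were compared in the same way, and all 3 pairs were chosen after their values were known. IPO8 minus IPO7 was -0.65 ± 0.13 in siVCPIP1 and -1.23 ± 0.31 in siControl, and KPNA3 minus KPNA4 was 0.18 ± 0.21 in siVCPIP1 and 0.71 ± 0.12 in siControl (SD, n = 3 each). The changes were 0.58 (SE 0.20) and -0.53 (SE 0.14), and each exact permutation p was 0.1, also after adjustment over the 3 pairs. Recomputed with GC and length corrected, a choice made after seeing the data, the change was 0.48 for TNPO2 minus TNPO1, 0.50 for IPO8 minus IPO7 and -0.31 for KPNA3 minus KPNA4. The transportin change was 1.91 as deposited, 2.11 after median of ratios and 1.71 after quantile normalization. Its smaller value after the correction follows largely from the choice of a pair unlike in GC content, since the correction removes a trend on GC content. A factor per library, as in median of ratios, can hardly alter a difference between 2 genes of a library. The cause of the transportin change was not tested. GC content was 41.7% in IPO8 and 37.6% in IPO7, and 40.3% in KPNA3 and 39.1% in KPNA4. IPO8, the richer in GC, fell less than IPO7, whereas KPNA3, the richer in GC, fell further than KPNA4.

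All 6 exportins fell as deposited, where 66% of all genes tested fell. Their median change was -1.70, against -1.12 for all genes. XPO1, the receptor for leucine-rich nuclear export signals, was at 5.33, 5.52 and 11.08 TPM in siVCPIP1 and at 79.04, 94.59 and 73.12 TPM in siControl. The groups were far apart (-3.38, SE 0.26, limma, adjusted p = 2.0e-05), and XPO1 was lower in all the fits, by 1.20 after GC and length correction. XPOT, the exporter of tRNA, fell by 3.18 and was also lower in all of them, with a siVCPIP1 mean of 2.44 TPM that became 1.52 TPM without replicate 3. XPO7 and XPO4 fell, with log2 fold changes of -1.86 and -1.55. With GC and length corrected XPO7 missed the threshold (-0.22, adjusted p of limma, 0.051) and XPO4 was called higher, by 0.40. At 0.62 to 1.14 TPM in siVCPIP1, the fall of XPO4 is understated on log2(TPM + 1), which limits what this call shows. Quantile normalization put XPO4 at -0.024 without a call.

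XPO5, the exporter of microRNA precursors, and XPO6, the exporter of actin bound to profilin, kept more of their level than the other exportins. XPO5 was at 14.52, 15.12 and 16.19 TPM in siVCPIP1 and at 19.58, 19.69 and 22.56 TPM in siControl. The groups did not overlap and the change was called (-0.41, SE 0.16, limma, adjusted p = 0.041), but the call was lost without siVCPIP1 replicate 1 or 2 or any siControl replicate (adjusted p 0.075 to 0.15). XPO5 was called higher in the other 3 fits, by 0.76, 0.80 and 1.06, and it shares exon bases with POLR1C on the opposite strand. XPO6 fell by 0.84, was called higher, by 0.35, after median-of-ratios scaling, and was not called in the remaining fits. XPO1 held 12.2% ± 1.70 of exportin TPM in siVCPIP1 and 40.02% ± 2.02 in siControl, while XPO6 held 45.7% ± 3.24 and XPO5 27.3% ± 5.74 in siVCPIP1, against 23.2% ± 1.48 and 10.1% ± 1.49 in siControl (SD, n = 3 each). None of these shares overlapped between the groups, nor did those of XPO4, XPO7 and XPOT.

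The change of these genes was ordered by the GC content of their transcripts, which the rule did not use. GC content ranged from 34.4% (KPNA5) to 59.4% (IPO4), with a median of 43.9%, against 50.4% for all tested genes with a value. The 16 genes under 42% had a median change of -2.69 and kept a median of 11.01% of their siControl mean, and 15 of them fell, where 98% of all genes in this range fell. The 16 genes from 42% to 48% had a median change of -2.18 and kept 15.4%, and all 16 fell, where 94% of all genes in the range fell. The 12 genes at 48% or more had a median change of -0.86 and kept 54.9%, and 9 of them fell, where 43.5% of all genes in the range fell. All genes tested had medians of -2.20, -1.88 and -0.24 in these ranges. The last range is open: in it all genes reached a GC content of 74.7%, and the 44 genes only 59.4%. Its 2 medians and shares are therefore not of like GC content. In bins of all genes with a median GC content of 51.2% and 52.7%, the median changes were -1.08 and -0.79. Across the 44 genes, measured in the same 6 libraries and so not independent, Pearson's r between GC content and log2 fold change was 0.59 (Spearman's rho 0.57). For GC at the third codon base it was 0.61 (rho 0.58). Across all 10915 genes with a value the correlation with GC content was r = 0.72 (rho 0.74).

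**Figure D4:**
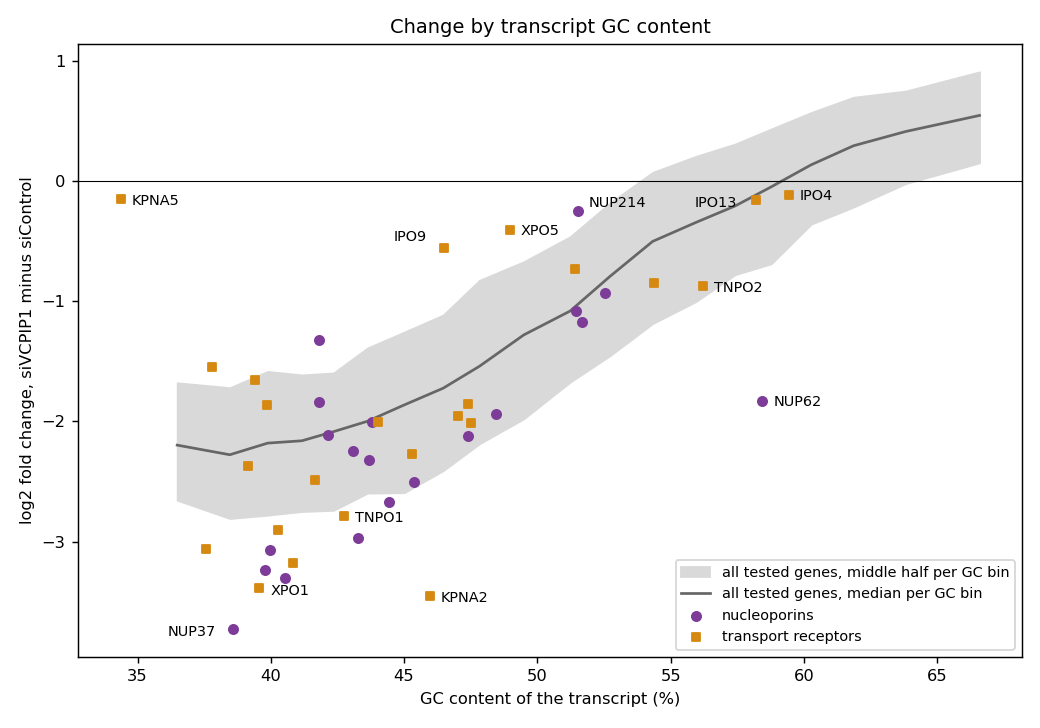
Log2 fold change, siVCPIP1 minus siControl, against transcript GC content in percent, with circles for the 20 nucleoporins, squares for the 24 transport receptors, a line for the median and a band for the 25th to 75th percentile of all tested genes in 20 GC bins. TNPO1 at 42.7% and TNPO2 at 56.2% lie at -2.79 and -0.88, and KPNA5 lies at -0.15 at the low end of the axis. NUP62 and KPNA2 lie below the band, and so do others, NUP37 and XPO1 among them.

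GC content of the promoters was set beside that of the transcripts. RefSeq (GRCh38.p14) gave a promoter of 300 bases for 39 of the 45 genes, with a median GC content of 63.3%, against 64.3% for 12487 genes of the table. Over the 38 tested genes among them, promoter GC content and log2 fold change correlated at r = 0.26 (rho 0.27), and transcript GC content and log2 fold change at r = 0.74 (rho 0.68). Over 8854 tested genes with both values these were r = 0.044 (rho 0.037) for the promoter and r = 0.73 (rho 0.74) for the transcript. The difference between the correlations was not tested. TNPO1, which fell further, had the promoter richer in GC, at 71.7%, against 59.7% for TNPO2.

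A list of 28 further transport genes, which the symbol rule does not match, showed both directions. Of 27 tested, 22 fell and 3 rose, with a median of -1.35, against 66% and 15% of all genes and a median of -1.12. The balance depended on the scaling. Median of ratios gave 12 lower and 9 higher (median -0.13), against 45.1% and 40.3% of all genes (median -0.14). Quantile normalization gave 14 lower and 7 higher (median -0.46), against 38.8% and 42.2% of all genes (median 0.04). The correction for GC and length gave 12 lower and 9 higher (median -0.14), against 31.7% and 37.2% of all genes (median 0.07). The pore proteins TMEM33, SEH1L and NDC1 fell, with log2 fold changes of -3.27, -2.85 and -2.77. GLE1, an mRNA export factor, fell by 2.10. TPR, the filament of the nuclear basket, was at 0.93, 0.72 and 2.67 TPM in siVCPIP1 and at 12.94, 15.39 and 13.93 TPM in siControl. RANBP2, the cytoplasmic filament, was at 0.14, 0.14 and 0.68 TPM in siVCPIP1 and at 5.67, 6.75 and 4.75 TPM in siControl, and AHCTF1, which seeds pore assembly on chromatin, fell by 2.33. The groups lay far apart in TPR and RANBP2, and these 3 genes, TMEM33, SEH1L, NDC1 and GLE1 were lower in the other 3 fits as well.

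In the RAN cycle, RAN was at 47.97, 54.84 and 131.22 TPM in siVCPIP1 and at 309.55, 392.99 and 423.99 TPM in siControl, without overlap. It fell by 2.39 and was also lower after median-of-ratios scaling and quantile normalization (-1.17 and -2.14). With GC and length corrected the call was lost (-0.14, adjusted p of limma, 0.54). RANGAP1, the activator of the RAN GTPase, was at 186.31, 167.21 and 184.11 TPM in siVCPIP1 and at 135.80, 115.13 and 111.91 TPM in siControl, and rose by 0.57 (limma, adjusted p = 0.0032). RANGRF, a RAN-binding protein, and AAAS, a nucleoporin, rose by 0.63 and 0.50. These 3 genes were higher in the other 3 fits too, and their GC content was 56.8%, 57.4% and 57.1%. RANBP3 and DDX19B were not called as deposited (0.18 and -0.40) and were called higher in the other 3 fits. CSE1L, the exportin that returns importin alpha to the cytoplasm, was at 27.12, 27.04 and 39.83 TPM in siVCPIP1 and at 76.42, 87.64 and 89.94 TPM in siControl. It fell by 1.43, was not called after median-of-ratios scaling (-0.22), and was lower after quantile normalization (-0.86). After GC and length correction it was higher by 0.89, at a GC content of 39.2%.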

How the data were processed

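The deposited table gives TPM per gene symbol in 6 libraries, as the authors calculated it, to 2 decimals. The genome was GRCh38.p13, named in the submitters' processing notes. Aligner, counter, annotation, strand setting and filters: not given in the sources used here. No depth can be read from TPM, so no counting interval is given. The libraries of a group may be technical replicates, and the p-values measure the spread between them.

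The 10966 genes whose mean over the 6 libraries reached 1 TPM were compared as log2(TPM + 1), a scale that understates the change of low genes. The test was limma 3.58.1 in R 4.3.3 (two-sided, with group as its single term and an expression trend in the variance, Benjamini-Hochberg over all of these genes, threshold 0.05). Alternatives were median-of-ratios scaling, quantile normalization, a pseudocount of 0.1 TPM, other filters, a replicate block, each library left out, and a correction for GC and length. That correction took each library's residuals from natural splines (5 degrees of freedom for GC, 3 for log length, with their product) over 10915 genes, 99.5% of those tested, with values from 1 coding transcript per gene of GENCODE release 29. The fits were tested on simulated data.

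All 45 genes could be named. Values in every library are given for the lowest and the highest change in each role and for NUP98, NUP153, KPNA2, KPNB1, TNPO1 and XPO1. From the wider list, the 8 largest changes among called genes, RAN, RANBP2, TPR, CSE1L and groups of 5 or fewer are named. IPO13 and RANGAP1 were given in full after their values were seen. The genes and lists were chosen with earlier results of these data known.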

Additional observations from a re-analysis of the deposited data

How the results depend on the processing

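Leaving out each library in turn left 37 to 40 of the 44 genes lower and 0 higher, against 6742 to 7772 lower (61.5% to 70.9%) and 1245 to 1851 higher (11.4% to 16.9%) among all genes, and VCPIP1 lay between -1.78 and -1.62. A pseudocount of 0.1 TPM and no filter left 40 lower, and a minimum mean of 5 TPM left 33 of 36 tested lower, with 0 higher in each. Of all genes, 65.5%, 54.6% and 60.5% (4679) were lower under these settings. With median of ratios, quantiles or the correction for GC and length, 7, 8 and 7 of the 44 were higher against 4416, 4625 and 4058 of all genes. The last 2 left 4258 and 3465 of all genes lower, and the correction left 22 of the 44 lower.

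Some log2 fold changes turned positive, and beyond the centring that these steps impose the cause was not tested. After GC and length correction these were NUP85 0.018, NUP155 0.067, IPO5 0.075, XPO6 0.10, NUP42 0.19, KPNA1 0.19, IPO4 0.22, NUP188 0.23, VCPIP1 0.26, KPNA7 0.27, IPO13 0.34, XPO4 0.40, IPO11 0.58, NUP43 0.87, IPO9 0.88, CSE1L 0.89, NUP214 0.96, XPO5 1.06, DDX19B 1.06 and KPNA5 1.65. After median-of-ratios scaling these were NUP93 0.028, NUP85 0.13, NUP188 0.25, TNPO2 0.27, XPO6 0.35, KPNA7 0.36, IPO9 0.56, KPNA5 0.60, DDX19B 0.73, XPO5 0.76, NUP214 0.86, IPO13 0.997 and IPO4 1.09. After quantile normalization these were NUP43 0.075, NUP188 0.14, TNPO2 0.46, IPO4 0.64, KPNA7 0.79, XPO5 0.80, IPO9 0.90, DDX19B 1.002, IPO13 1.14, KPNA5 1.19 and NUP214 1.22. With each library left out in turn, KPNA5 lay between -0.26 and 0.019, positive without siVCPIP1 replicate 3, and was not called.

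No pairing of the libraries by replicate number was clear. Same-numbered deviations from the group means correlated at 0.53, -0.27 and 0.16 over genes, and differently numbered ones at -0.54 to 0.40. With 3 libraries per group, these values cannot exclude a pairing. With the replicate number as a block, 39 of the 44 genes were lower, 0 higher, and XPO5 alone lost its call (limma, adjusted p = 0.066), among 7085 lower (64.6%) and 1586 higher (14.5%) of all genes. TPM carries no read depth, so genes near 0 TPM in siVCPIP1, such as NUP35, are the least certain in fold.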
